A study of Mus musculus with 18 samples.

Results

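The tumour necrosis factor (TNF) ligand and receptor superfamily was followed in the epidermis of mice that lack the Notch effector Rbpj or the receptor Notch1. Members were taken by gene symbol: every row of the deposited count table whose symbol begins with Tnfsf or Tnfrsf, with Tnf, Lta, Ltb, Ltbr, Fas, Fasl, Cd40, Cd40lg, Cd27 and Eda. This gave 42 of 21011 rows, made up of 18 ligand genes, 23 receptor genes and 1 antisense gene, Tnfsf13os. Cd70 was not analysed here. A total of 31 members passed the filter on low counts and were tested: 22 of the 23 receptors, 8 of the 18 ligands and Tnfsf13os.

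RNA came from 18 mice, 1 library each, from cells scraped off the dermis of trypsin-treated dorsal skin. The labels give the skin as telogen, when hair follicles rest between rounds of growth, although genes of growing hair were high in some mice. Tamoxifen, which switches on the CreERT recombinases, was given at 8 weeks of age and skin was taken 10 weeks later. KR mice (n = 4, numbered 1, 3, 4 and 5) lost Rbpj through K14-CreERT, driven by the promoter of a keratin of the basal layer, and had 2 controls (4 and 6). LR mice (n = 3, numbered 1 to 3) lost Rbpj through Lrig1-CreERT2, driven from a gene of the upper hair follicle, and had 3 controls (2, 3 and 5). KN1 mice (n = 4, numbered 1 to 4) lost Notch1 through a driver that the labels write K14-CreERT1, and had 2 controls (1 and 7). Each mutant and its controls share a cage label (Batch2 for KR, Batch1 for LR, Batch3 for KN1), and the labels do not say which alleles the controls carry. Because the main test compared a mutant only with controls of its own batch, levels of different batches are given side by side. Mutants were tested against controls of other batches only in the alternative fit with all 7 controls pooled.

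Ligands of the superfamily are trimeric proteins, most of them anchored in the membrane of one cell and read by receptors on its neighbours. Some receptors with a death domain can start apoptosis. Many receptors recruit TRAF adaptors that activate NF-kappaB, either through the canonical RelA route or through the kinase NIK (Map3k14), p52 (Nfkb2) and RelB. In skin the family is known for the inflammatory action of TNF, for the formation of hair follicles and glands by ectodysplasin, and for costimulation of the T cells that reside in the epidermis.

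Total counts ran from 8076316 to 11239648 in the 11 mutants and from 8299785 to 21216169 in the 7 controls. KR control 4 and KN1 control 1, which had the most reads, merge sequencing of the same mouse on separate occasions, and KR control 6, LR control 5 and KN1 control 7 carry a second name in the labels. LR control 5 stood apart from its group, with a chi-square per degree of freedom of 46 and 37.7 against the other LR controls, which differed from each other by 5.98. Notch1 fell in KN1, by 0.91 on the log2 scale (SE 0.19, adjusted p = 0.0251). Rbpj was lower in every KR and LR mouse than in its controls but did not pass the test (-0.47, adjusted p = 0.135, and -0.66, adjusted p = 0.0659), and counts over the whole gene do not resolve a deleted exon. It was lower in every KN1 mouse than in its controls as well (30.9 to 36.8 against 42.6 and 44.2 CPM, -0.34, adjusted p = 0.31), where Rbpj was not deleted. Krt5 (11200 to 18600 CPM, counts scaled to library size) and Krt14 (4710 to 11700 CPM) marked all libraries as epidermal. T cell (Cd3e, 6.31 to 35.2 CPM) and Langerhans cell (Cd207, 10 to 37.2 CPM) RNA was present in all of them too, with low Col1a1 (2.14 to 23.2 CPM) and Pecam1 (0.138 to 2.38 CPM), markers of dermal fibroblasts and vessels.

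Receptors were far more abundant than ligands in control epidermis. Levels between genes are given per length, as CPM per kb of exon, averaged over the 7 controls of all batches. Tnfrsf1a, the death-domain receptor TNFR1, led at 119 ± 33.6 CPM per kb (SD, n = 7), which placed it above 97.5% of the tested genes with a known length. Its lowest control (92.6 CPM per kb) lay above the highest control of every other member. Tnfrsf19 (Troy, a TRAF-binding receptor) followed at 50.7 ± 15.4 CPM per kb, Ltbr, the lymphotoxin-beta receptor, at 38.7 ± 10.9 and Tnfrsf18 (GITR, a costimulatory receptor) at 32.3 ± 10.2, and the ranges of these 3 overlapped. Tnfrsf12a (Fn14, the receptor for TWEAK) averaged 19.1 ± 12 CPM per kb and Tnfrsf21 (the death receptor DR6) 13 ± 2.1. Tnfrsf4 (OX40, a costimulatory receptor) averaged 11 ± 2.84 CPM per kb and Tnfrsf11b (osteoprotegerin, the soluble decoy for RANKL) 8.53 ± 0.738. Fas, which triggers apoptosis, stood at 5.31 ± 1.52 and Tnfrsf14 (HVEM, the receptor for LIGHT) at 4.21 ± 1.75 CPM per kb. The median tested gene stood at 5.39 CPM per kb, so 8 receptors and no ligand were above it. The most abundant ligands were Ltb, the membrane anchor of lymphotoxin, at 1.91 ± 1.54, Eda, ectodysplasin, at 1.35 ± 0.277, and Tnf at 0.746 ± 0.334 CPM per kb.

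**Figure D1:**
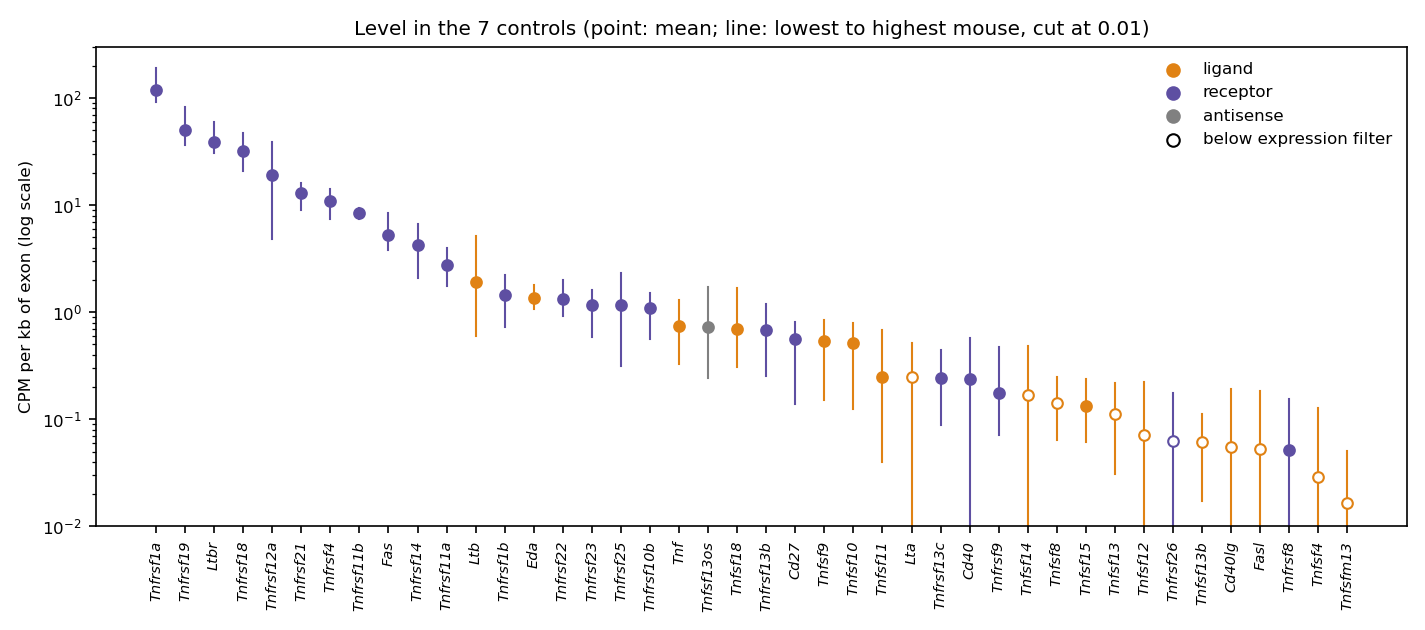
Level of each member in the 7 control mice, in CPM per kb of exon on a log axis. Points are means, lines run from the lowest to the highest mouse (cut at 0.01), open points mark members below the expression filter; receptors fill the first 11 places, from Tnfrsf1a at 119 to Tnfrsf11a at 2.78.

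In KR epidermis, where Rbpj was deleted through the basal-layer driver, 3 of the 31 tested members rose and 0 fell. All 3 are costimulatory receptors best known from T cells: Tnfrsf4, Tnfrsf18 and Tnfrsf9 (4-1BB). This is 9.68% of the members, beside 0.696% of all tested genes called higher and 0.902% called lower in the same comparison. At an unadjusted p under 0.05, 8 members (25.8%) stood beside 22.9% of all genes, so that share was near the background. Every mutant lay above every control for 13 members (41.9%, against 19% of all genes) and below for 2, Tnfrsf21 and Tnfrsf22 (6.45%, against 19.5%). The median log2 fold change was 0.42 over the members and 0.04 over all genes.

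In LR epidermis, where Rbpj was deleted through the Lrig1 driver, 3 members rose as well: Tnfrsf4 and Tnfrsf18, and the ligand Tnfsf11 (RANKL), which activates the receptor RANK. No member fell. In that comparison 0.872% of all genes were called higher and 0.248% lower. Unadjusted p-values under 0.05 were reached by 9 members (29%) and 15.5% of all genes. Mutants and controls were separate for 8 members on the higher side (25.8%, against 10.3% of all genes) and for Cd27 and Tnfrsf11a on the lower side (6.45%, against 9.29%). The members' median was 0.19, also when Tnfrsf8, with no count in the controls, was set at its bound, and that of all genes was 0.

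In KN1 epidermis, where Notch1 was deleted, no member passed the test in either direction. edgeR gave 0 members at an unadjusted p under 0.05, where 18.5% of all genes were found, and DESeq2 called 0 members. Over all genes, 0.86% were called higher and 1.11% lower. No member had every mutant above every control (13.8% of all genes did), and 3 had every mutant below: Tnfrsf11b, Tnfrsf1b and Tnfrsf22 (9.68%, against 14.3%). The median was -0.13 over the members and 0.02 over all genes.

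**Figure D2:**
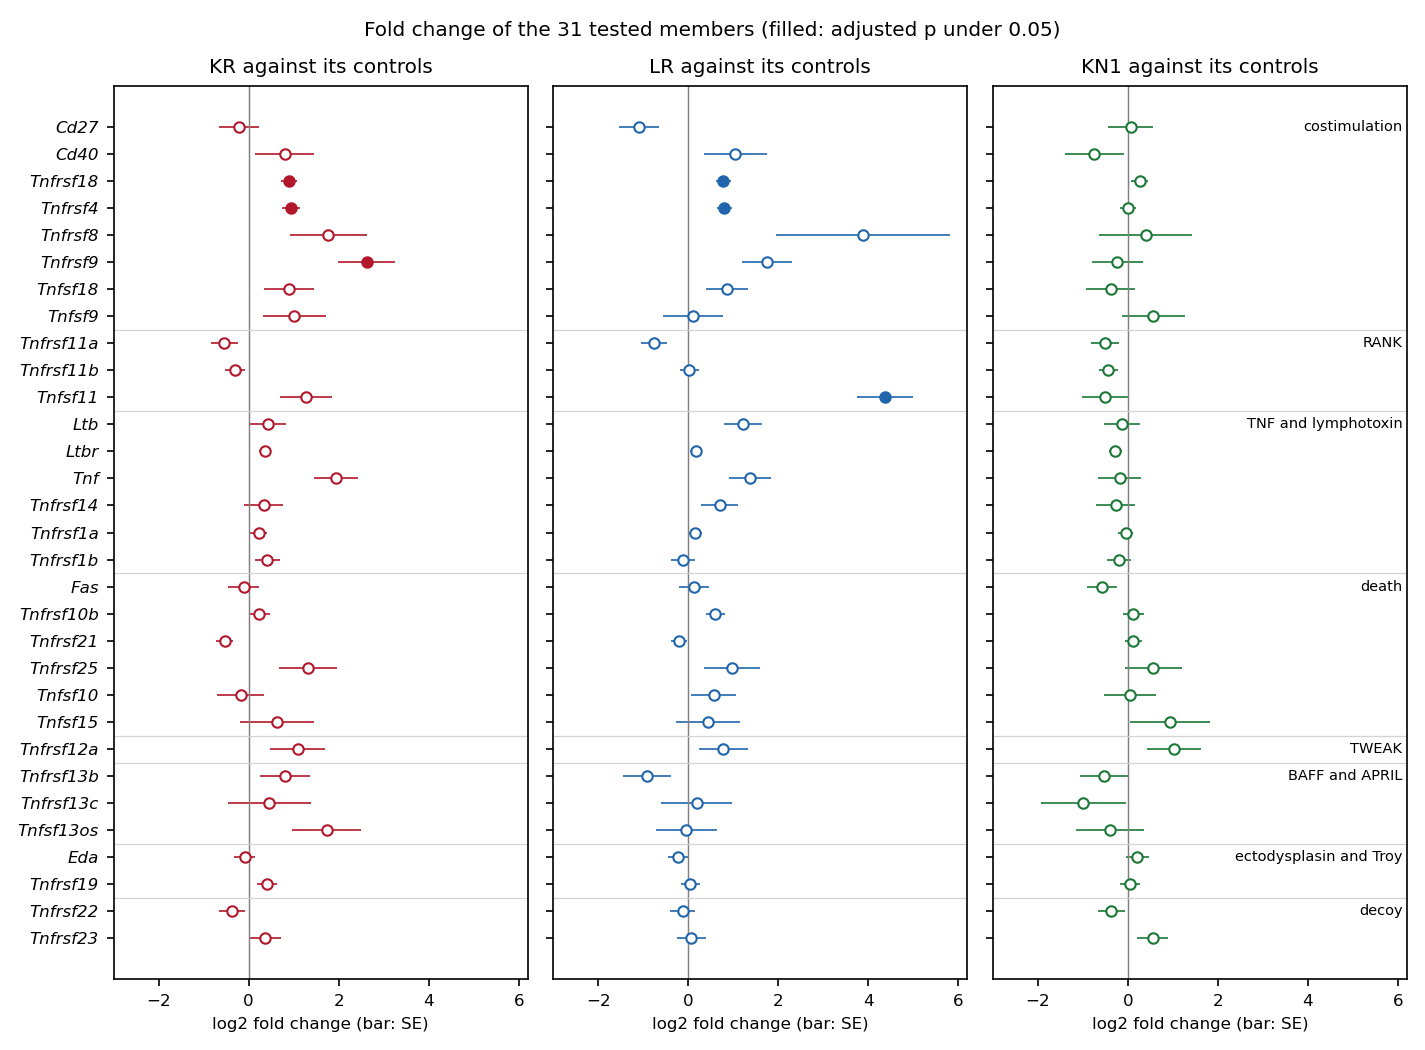
Log2 fold change (mutant over its own controls) of the 31 tested members, grouped by pathway, with the SE as a bar. Filled points passed an adjusted p of 0.05: Tnfrsf18 and Tnfrsf4 in KR and LR, Tnfrsf9 in KR, Tnfsf11 in LR and none in KN1; the LR value of Tnfrsf8 rests on 5 counts against 0.

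Among the costimulatory receptors, Tnfrsf4 and Tnfrsf18 lie side by side. Both are on the plus strand of chromosome 4 (GRCm38, the assembly of mm10), Tnfrsf4 at 156013843 to 156016612 and Tnfrsf18 at 156026164 to 156028895, with start sites 12.32 kb apart. Tnfrsf9 lies on the same chromosome at 150914562 to 150946102, and 9 of the 42 members are on chromosome 4. Tnfsf11 is on the minus strand of chromosome 14, at 78277445 to 78308043. The 250 bases before the RefSeq start (GRCm38.p6) of the members past the threshold are shown because these are the genes that moved: chr4:156013445-156013694 for Tnfrsf4, chr4:156026072-156026321 for Tnfrsf18, chr4:150927749-150927998 for 1 of the 2 starts of Tnfrsf9, and chr14:78308044-78308293 (minus strand) for Tnfsf11. Capitals mark motif matches.
Tnfrsf4: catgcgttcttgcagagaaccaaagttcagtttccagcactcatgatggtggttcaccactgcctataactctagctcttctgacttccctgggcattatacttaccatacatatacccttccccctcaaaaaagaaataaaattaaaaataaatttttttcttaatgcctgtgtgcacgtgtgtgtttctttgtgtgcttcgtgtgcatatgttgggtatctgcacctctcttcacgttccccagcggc
Tnfrsf18: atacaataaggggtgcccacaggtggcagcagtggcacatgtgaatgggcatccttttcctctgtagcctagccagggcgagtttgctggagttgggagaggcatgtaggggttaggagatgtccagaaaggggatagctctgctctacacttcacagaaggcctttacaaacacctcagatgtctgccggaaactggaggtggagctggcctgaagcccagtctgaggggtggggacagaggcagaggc
Tnfrsf9: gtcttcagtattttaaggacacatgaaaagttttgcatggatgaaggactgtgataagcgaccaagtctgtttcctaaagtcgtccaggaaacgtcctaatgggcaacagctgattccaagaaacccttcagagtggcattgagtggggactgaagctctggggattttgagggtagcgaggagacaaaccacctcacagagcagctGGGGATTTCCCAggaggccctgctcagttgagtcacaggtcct
Tnfsf11: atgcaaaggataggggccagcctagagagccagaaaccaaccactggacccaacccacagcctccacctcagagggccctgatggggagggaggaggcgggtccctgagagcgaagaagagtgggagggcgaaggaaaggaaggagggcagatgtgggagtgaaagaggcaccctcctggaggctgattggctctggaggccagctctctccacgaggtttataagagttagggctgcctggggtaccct
Each window was searched on both strands for TGGGAA, the core of the site bound by Rbpj, and for the NF-kappaB site. The capitals in the Tnfrsf9 window hold overlapping NF-kappaB matches that begin 43 and 42 bases before the start, and a TGGGAA match on the minus strand beginning 37 bases before it, which shares bases with them. Neither motif was found in these windows of Tnfrsf4, Tnfrsf18 and Tnfsf11, nor in that of the other Tnfrsf9 start (chr4:150919905-150920154), which says only that these letters are not there. Over the superfamily, 32 symbols matched 36 windows, of which 8 held TGGGAA and 3 the NF-kappaB site (those of Ltb, Tnfrsf8 and Tnfrsf9). Among all 32851 windows the shares were 21.6% and 3.9%.

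Tnfrsf4 rose by a similar amount in both Rbpj mutants. In KR mice 1, 3, 4 and 5 it measured 24.3, 19.2, 16.4 and 20.4 CPM, and in the controls 10.2 and 10.6 CPM. Every KR mouse lay above both controls, and the log2 fold change was 0.94 ± 0.19 (SE, adjusted p = 0.0265). In LR mice 1 to 3 it measured 26.5, 22.9 and 30.3 CPM against 17.6, 14.1 and 13.9 CPM in the controls. The LR groups were separate too, and the log2 fold change was 0.80 ± 0.17 (adjusted p = 0.0239). In KN1 the values were 18.2, 17.9, 23.3 and 18.8 CPM against 19.6 and 19.3 CPM. The KN1 groups overlapped, with a log2 fold change of 0.01 ± 0.18 (95% interval -0.37 to 0.38).

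Tnfrsf18 followed the same order. KR mice held 68.5, 63.9, 58.9 and 69.9 CPM against 38.5 and 31.8 CPM, or 0.89 ± 0.18 on the log2 scale (adjusted p = 0.0265). LR mice held 77.1, 75.8 and 78.9 CPM against 49.9, 49.9 and 35.1 CPM, or 0.78 ± 0.17 on that scale (adjusted p = 0.0239). The groups did not overlap in either. KN1 mice held 82.8, 64.1, 106 and 79.2 CPM against 67.6 and 71.2 CPM, groups that overlapped, with 0.26 ± 0.18 (adjusted p = 0.448). An antisense gene overlaps 27.2% of the exon bases of Tnfrsf18, and the labels do not state if reads were counted by strand.

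The controls of the 3 batches were not at one level for either gene. For Tnfrsf4 the KR controls (10.2 and 10.6 CPM) were below the LR controls (13.9 to 17.6 CPM) and the KN1 controls (19.3 and 19.6 CPM), so that the KR mice overlapped the controls of the other batches. Against all 7 controls pooled, the KR log2 fold change of Tnfrsf4 was 0.42 (adjusted p = 0.179) and that of Tnfrsf18 0.41 (adjusted p = 0.208). In LR the pooled values were 0.82 for Tnfrsf4 (adjusted p = 0.0191) and 0.65 for Tnfrsf18, which lost its call (adjusted p = 0.0611). The calls in KR were also lost without KR control 4 or 6 or without KR mouse 1, 3 or 5, where Tnfrsf4 ranged from 0.84 to 0.97 and Tnfrsf18 from 0.74 to 1.04. In LR they were lost without LR control 3 or 5 or LR mouse 1 or 3. Without LR control 5, the library that stood apart, the LR values were 0.74 for Tnfrsf4 (adjusted p = 0.0876) and 0.63 for Tnfrsf18 (adjusted p = 0.0927).

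The genes around the pair did not pass the test. Of the 11 tested genes nearest to them on either side with known coordinates, 0 were called in any of the 3 comparisons by edgeR (2, 1 and 3 were under an unadjusted p of 0.05 in KR, LR and KN1). Agrn, the next but one gene downstream of Ttll10 and a matrix protein gene, came closest, with 0.52 ± 0.19, 0.48 ± 0.17 and 0.56 ± 0.19 in the 3 mutants (adjusted p = 0.125, 0.184 and 0.125). At the nearest genes, Ube2j2, B3galt6, Sdf4 and Ttll10, the values ran from -0.23 to 0.51.

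**Figure D3:**
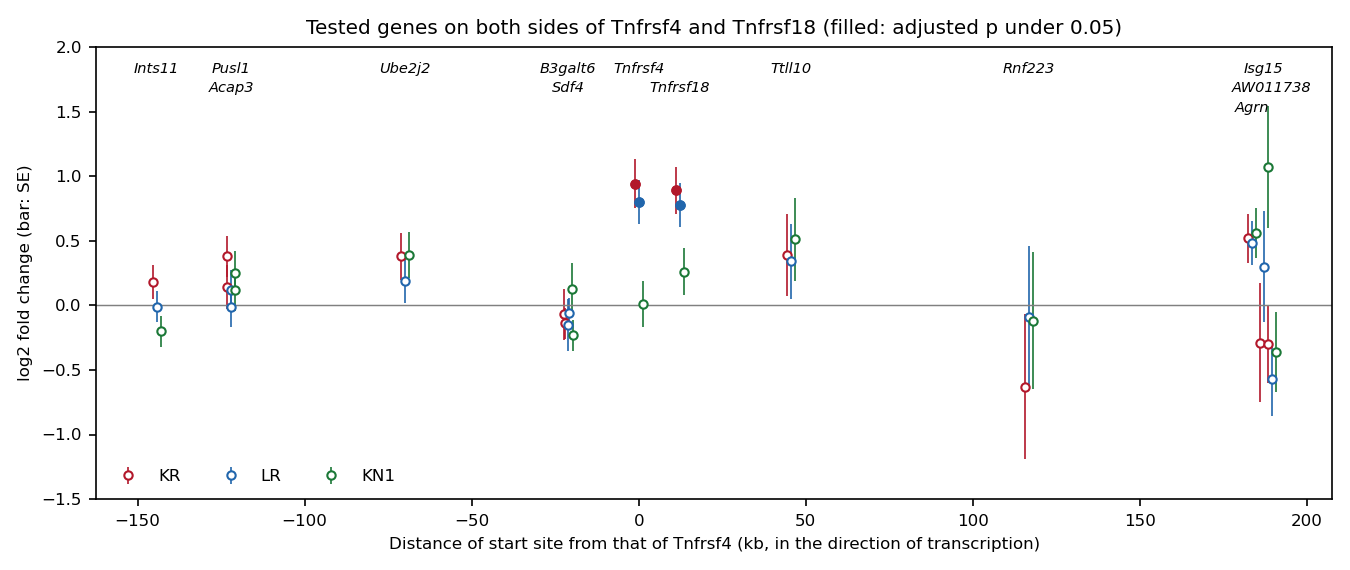
Log2 fold change, with the SE as a bar, of tested genes on both sides of Tnfrsf4 and Tnfrsf18 against the distance of their start sites from that of Tnfrsf4 in kb (points of 1 gene are shifted slightly apart). Filled points passed an adjusted p of 0.05, and these were Tnfrsf4 (0.94 and 0.80) and Tnfrsf18 (0.89 and 0.78) in KR and LR.

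Tnfrsf9, a costimulatory receptor that T cells put on their surface once activated, was a low-abundance gene in all groups. In KR it measured 1.78, 1.78, 0.716 and 1.48 CPM against 0.193 and 0.27 CPM, from 55 counts against 7. No KR mouse overlapped a control, and the log2 fold change was 2.62 ± 0.63 (adjusted p = 0.045). In LR it measured 1.05, 1.64 and 1.29 CPM against 0.355, 0.452 and 0.358 CPM, also separate, with 1.75 ± 0.56, which missed the threshold (adjusted p = 0.135). In KN1 the values of 0.371, 0.463, 0.969 and 0.919 CPM overlapped those of the controls (0.408 and 1.3 CPM), with -0.23 ± 0.57. The KR call of Tnfrsf9 was made in 11 of 24 alternative fits and was lost without KR control 4 (2.36, adjusted p = 0.194) or KR control 6 (2.79, adjusted p = 0.368). Against all 7 controls pooled Tnfrsf9 in KR had 1.63 (adjusted p = 0.0409), and without the filter 2.61 (adjusted p = 0.0513). The call was also lost without KR mouse 1, 3 or 5 (2.50 to 2.60) and, through the shared spread, without LR control 3, LR mouse 1 or 2, or KN1 mouse 2, 3 or 4.

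The other tested members of the costimulatory group did not pass the test in any comparison. Tnfsf18, the ligand of Tnfrsf18, measured 0.99 to 1.48 CPM in KR against 0.631 and 0.676 CPM (0.89 ± 0.56), and 1.72 to 5.47 CPM in LR against 1.3 to 3.5 CPM (0.86 ± 0.46). Tnfsf9, the ligand of Tnfrsf9, had 1.01 ± 0.70 in KR and 0.11 ± 0.67 in LR. Tnfsf4, the ligand of Tnfrsf4, was below the filter and reached at most 0.479 CPM in any mouse. Cd40, the receptor by which T cells license antigen-presenting cells, had 0.80 ± 0.66, 1.04 ± 0.70 and -0.74 ± 0.65 in KR, LR and KN1. Cd27, a receptor of resting and memory T cells, measured 0.863, 0.69 and 0.97 CPM in LR against 1.89, 1.69 and 1.79 CPM. Its LR groups were separate, yet -1.09 ± 0.44 did not pass (adjusted p = 0.241). In KR Cd27 had -0.22 ± 0.45 and in KN1 0.06 ± 0.51. Tnfrsf8 (CD30) had 1.77 ± 0.85 in KR (adjusted p = 0.226). In LR it had 5 counts against 0, the groups overlapped and it did not pass (adjusted p = 0.353), so a rise was not shown. Taking 3 counts over the control group as the floor, the bound for Tnfrsf8 was a ratio of 1.52.

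**Figure D4:**
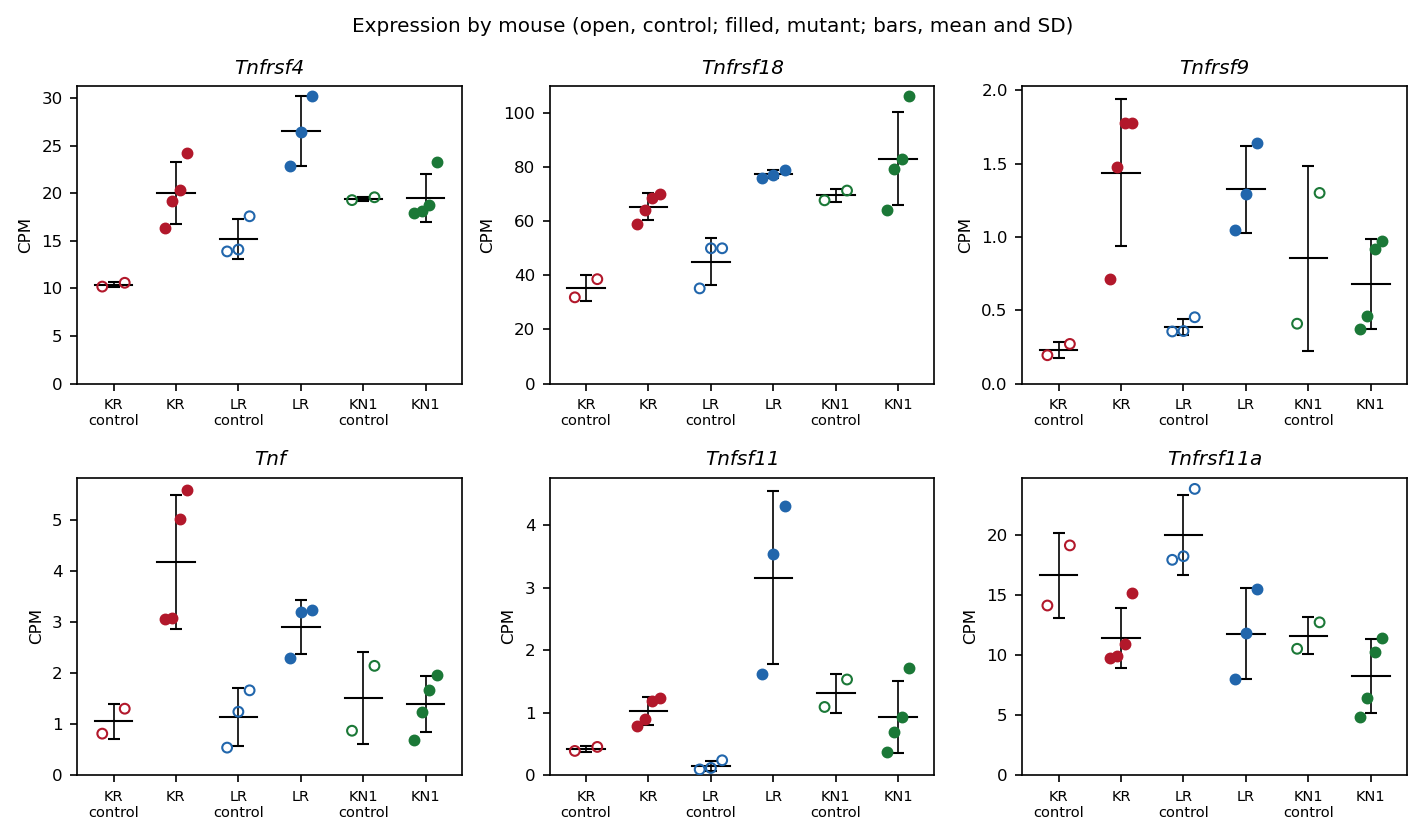
CPM of 6 members in each mouse (open, control; filled, mutant), with the mean and SD of each group. Tnfrsf4 and Tnfrsf18 of KR and LR lie above their own controls but KR overlaps the KN1 controls; Tnfsf11 reaches 1.62 to 4.31 CPM in LR against at most 0.236 in its controls.

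Markers of epidermal T cells had no common direction in KR and were on the lower side in LR, whereas those of Langerhans cells were on the higher side in both. Differences in these lists between mutants were not tested. Over all genes, an unadjusted p under 0.05 was reached by 22.9% in KR, 15.5% in LR and 18.5% in KN1. At the adjusted threshold 0.696%, 0.872% and 0.86% were called higher and 0.902%, 0.248% and 1.11% lower. The summed level of 13 epidermal T cell markers was 181 to 299 CPM in KR against 96.8 and 175 CPM in its controls, with 8 of 13 on the higher side (median 0.06), 0 called by edgeR and 1 at an unadjusted p under 0.05. Thy1 made up most of that gap in the sum, at 132 ± 54.3 against 58.9 CPM on average. The other markers went both ways. Cd3g had -0.21, Trdc -0.10 and Tcrg-C1 -0.32, while Cd3e had 0.38, Cd3d 0.28, Fcer1g 0.74 and Xcl1 0.96. In LR it was 69.5 to 157 CPM against 152 to 234 CPM, with 13 of 13 on the lower side, 0 called and 8 at an unadjusted p under 0.05. In KN1 it was 111 to 147 CPM against 226 and 277 CPM, with 12 of 13 on the lower side and 10 at an unadjusted p under 0.05. There Cd3g, Cd3d and Trdc fell by 1.41, 1.29 and 1.59 on the log2 scale (adjusted p = 0.0317, 0.0317 and 0.0343). The summed level of 10 Langerhans cell markers was 1900 to 2180 CPM in KR against 890 and 1470 CPM, with all 10 on the higher side and Mfge8 called (1.14, adjusted p = 0.048). In LR it was 1150 to 1790 CPM against 783 to 1220 CPM, also with all 10 on the higher side, 0 called by edgeR and 5 at an unadjusted p under 0.05. In KN1 it was 1340 to 1640 CPM against 1850 and 2600 CPM, with 9 of 10 on the lower side, 0 called and 4 at an unadjusted p under 0.05. In bulk RNA a change in the number of cells and a change in RNA per cell cannot be told apart, and the part of these cells in the receptor values was not tested.

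In the RANK group, Tnfsf11 had the greatest fold change of all called members. In LR it measured 4.31, 3.54 and 1.62 CPM, against 0.236, 0.113 and 0.0894 CPM in the controls, from 101 counts against 4. The groups were far apart, with 3.16 ± 1.39 against 0.146 ± 0.079 CPM (SD, n = 3 each) and a log2 fold change of 4.37 ± 0.62 (SE, 95% interval 3.07 to 5.68, adjusted p = 0.0012). In KR the values of 1.19, 0.891, 1.23 and 0.789 CPM also lay above the controls (0.386 and 0.45 CPM), but 1.28 ± 0.58 did not pass (adjusted p = 0.198). In KN1 the values of 0.371, 0.926, 0.692 and 1.72 CPM overlapped those of the controls (1.53 and 1.09 CPM), with -0.50 ± 0.51. The LR controls thus had the lowest Tnfsf11 of all groups, and against all 7 controls the LR fold change was 2.41 (adjusted p = 0.0162). Tnfsf11 in LR was called in all 26 alternative fits.

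The RANK receptor and its decoy did not pass the test. Tnfrsf11a (RANK, on chromosome 1) measured 11.8, 15.5 and 7.97 CPM in LR against 18.2, 17.9 and 23.8 CPM, separate groups with -0.76 ± 0.29 (adjusted p = 0.204). It had -0.54 ± 0.30 in KR (9.77 to 15.1 against 14.1 and 19.1 CPM) and -0.50 ± 0.31 in KN1 (4.84 to 11.4 against 10.5 and 12.7 CPM), where groups overlapped. Tnfrsf11b, which binds RANKL and keeps it from RANK, measured 17.9, 15.4, 18.5 and 19.4 CPM in KN1 against 22.9 and 25.2 CPM, with -0.43 ± 0.22 (adjusted p = 0.31). In KR it had -0.31 ± 0.22 and in LR 0.02 ± 0.21.

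In the TNF and lymphotoxin group all 6 tested members were on the higher side in KR and all 6 on the lower side in KN1, and none was called in any comparison. Tnf, the founding cytokine of the family, measured 5.58, 3.07, 5.01 and 3.06 CPM in KR against 1.3 and 0.811 CPM, from 158 counts against 36. The groups were separate, and 1.93 ± 0.49 lay just short of the threshold (adjusted p = 0.0539). DESeq2 called it (adjusted p = 0.00655), as did the fit of the KR cohort alone (adjusted p = 0.0382). In LR Tnf measured 2.3, 3.19 and 3.23 CPM against 1.66, 1.24 and 0.537 CPM, again separate, with 1.37 ± 0.46 (adjusted p = 0.162). In KN1 it measured 1.24, 1.97, 1.66 and 0.689 CPM against 2.14 and 0.868 CPM, with -0.18 ± 0.48. Ltb measured 3.26, 3.1 and 3.02 CPM in LR against 1.18, 0.904 and 1.88 CPM, with 1.21 ± 0.42 (adjusted p = 0.17), and had 0.42 ± 0.41 in KR.

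The receptors of TNF and lymphotoxin did not pass the test in any comparison, which does not show that they were unchanged. Tnfrsf1a, with the highest level of the family, measured 281 to 324 CPM in KR against 240 and 276 CPM (0.22 ± 0.18). Its log2 fold change was 0.15 ± 0.16 in LR and -0.05 ± 0.17 in KN1. Tnfrsf1b (TNFR2, the TNF receptor without a death domain) had 0.41 ± 0.28, -0.11 ± 0.27 and -0.20 ± 0.27. Ltbr measured 100, 105, 88.8 and 86 CPM in KR against 76.2 and 71.6 CPM, separate groups with 0.36 ± 0.14 (adjusted p = 0.154). In KN1 it measured 92.1, 98, 116 and 110 CPM against 111 and 141 CPM, with -0.28 ± 0.14 (adjusted p = 0.297). Tnfrsf14 had 0.33 ± 0.44, 0.70 ± 0.41 and -0.27 ± 0.43 in KR, LR and KN1.

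Among the death receptors and their ligands none passed the test. Tnfrsf21 measured 29.7, 44.6, 47.1 and 42.8 CPM in KR against 66 and 52.2 CPM, separate groups with -0.53 ± 0.19 (adjusted p = 0.123). Its values were -0.21 ± 0.18 in LR (adjusted p = 0.622) and 0.12 ± 0.19 in KN1. Tnfrsf10b, the mouse receptor for TRAIL, measured 11.8, 12.4 and 11.3 CPM in LR against 8.28, 7.57 and 7.6 CPM, separate groups with 0.60 ± 0.21 (adjusted p = 0.171), and had 0.24 ± 0.23 in KR and 0.12 ± 0.23 in KN1. Fas ranged widely in KN1, with 17.1, 9.38, 4.98 and 6.66 CPM against 17.3 and 11 CPM (-0.57 ± 0.34, adjusted p = 0.375). Tnfrsf25 (DR3) had 1.32 ± 0.65 in KR (5.23 to 10.8 against 2.66 and 2.88 CPM, adjusted p = 0.236), 0.97 ± 0.63 in LR and 0.57 ± 0.64 in KN1. Its ligand Tnfsf15 (TL1A) had 0.63 ± 0.83, 0.44 ± 0.71 and 0.94 ± 0.89, and Tnfsf10 (TRAIL) -0.18 ± 0.52, 0.57 ± 0.50 and 0.05 ± 0.58.

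Tnfrsf12a, a receptor induced on injury, was the most variable of the abundant receptors. It measured 51.5, 46.5, 41.8 and 46.6 CPM in KR against 24.1 and 19.5 CPM, separate groups with 1.09 ± 0.61 (adjusted p = 0.3). Fitted with the KR cohort alone, where the spread of the other batches did not enter, the same difference passed (1.10, adjusted p = 0.0204). In LR it measured 61.2, 67 and 62.8 CPM against 50.8, 51.4 and 9.39 CPM (0.78 ± 0.55). LR control 5 held the lowest value of the 18 mice, and without it the LR fold change of Tnfrsf12a was 0.32. In KN1 it ran from 43.8 to 173 CPM against 27.2 and 76 CPM (1.03 ± 0.60, adjusted p = 0.378).

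The BAFF and APRIL receptors, which sustain B and plasma cells, were near the lower limit of detection. Tnfrsf13b (TACI) had 0.81 ± 0.56 in KR, -0.91 ± 0.53 in LR (0.646 to 1.92 against 1.89 to 3.13 CPM, adjusted p = 0.427) and -0.52 ± 0.54 in KN1. Tnfrsf13c (the BAFF receptor) rested on 8 to 24 counts per group, with 0.46 ± 0.92, 0.19 ± 0.79 and -0.99 ± 0.94. Tnfsf13os measured 0.594 to 1.98 CPM in KR against 0.483 and 0.27 CPM (1.73 ± 0.77, adjusted p = 0.193). It overlaps Tnfsf13 over 19.9% of its exon bases and the read-through gene Tnfsfm13 over 22.8%, so its reads cannot be assigned to 1 strand with certainty.

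Eda and Tnfrsf19, of the ectodysplasin branch and its relative Troy, did not pass the test. Eda had -0.09 ± 0.24 in KR, -0.23 ± 0.23 in LR (6.14 to 10.8 against 7.69 to 12.3 CPM) and 0.21 ± 0.25 in KN1. Tnfrsf19, a receptor of hair follicle cells, had 0.41 ± 0.22 in KR (288 to 317 against 188 and 266 CPM), 0.04 ± 0.21 in LR and 0.04 ± 0.22 in KN1. The receptor genes of the family with other symbols, Edar and Eda2r of the ectodysplasin branch, Ngfr and Relt, were not called either, with 0 of 4 in each comparison and 0 of 4 at an unadjusted p under 0.05. Edar had 0.36 ± 0.40, 0.30 ± 0.38 and -0.73 ± 0.43 in KR, LR and KN1.

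Tnfrsf22 and Tnfrsf23, mouse decoy receptors for TRAIL on chromosome 7, cannot be separated with certainty. Their longest coding transcripts were 93.6% identical over 1474 aligned bases. Tnfrsf22 measured 5.22, 5.55, 4.4 and 4.44 CPM in KR against 6.52 and 6.13 CPM (-0.37 ± 0.28, adjusted p = 0.45). In KN1 it measured 3.71, 4.51, 4.01 and 2.53 CPM against 4.64 and 4.88 CPM (-0.37 ± 0.30, adjusted p = 0.531). Both pairs of groups were separate, by little. Tnfrsf23 had 0.36 ± 0.35 in KR, 0.07 ± 0.32 in LR and 0.55 ± 0.34 in KN1 (adjusted p = 0.397).

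The 11 members below the filter were 10 ligands (Cd40lg, Fasl, Lta, Tnfsf12, Tnfsf13, Tnfsf13b, Tnfsf14, Tnfsf4, Tnfsf8 and Tnfsfm13) and the decoy receptor Tnfrsf26. Each was counted in at least 1 mouse, and the highest single value was 1.07 CPM, Tnfsf14 in KR mouse 1. Tnfsf12 (TWEAK, the ligand of Tnfrsf12a) had 7 counts in KR and 0 in its controls. On the same floor of 3 counts this is a ratio of 1.93, which was not tested. It shares 48.3% of its exon bases with Tnfsfm13, which joins it to Tnfsf13. At this depth these members were not tested for differences.

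Whether the effect of a mutation differed between mutants was tested for each member as a difference of fold changes, and 0 of 31 passed in any of the 3 pairs. Over all genes, 0.00605% passed between KR and LR, 0% between KR and KN1 and 0.00605% between LR and KN1. At an unadjusted p under 0.05 the counts were 2 members between KR and LR (6.45%, against 4.15% of all genes), 7 between KR and KN1 (22.6%, against 7.57%) and 7 between LR and KN1 (22.6%, against 7.04%). Tnfsf11 came nearest: its log2 fold change in LR exceeded that in KN1 by 4.87 ± 0.81 (95% interval 3.17 to 6.58, adjusted p = 0.0587). It was called without the filter (adjusted p = 0.0485) and without KR control 6 (adjusted p = 0.0494), LR mouse 3 (adjusted p = 0.0314) or KN1 mouse 4. For Tnfrsf4, KR exceeded KN1 by 0.94 (0.40 to 1.47, adjusted p = 0.435) and LR exceeded KN1 by 0.80 (0.28 to 1.31, adjusted p = 0.439). Between KR and LR, Tnfrsf4 differed by 0.14 (-0.38 to 0.66) and Tnfrsf18 by 0.11 (-0.39 to 0.61). A rise of these receptors in the Rbpj mutants and not in KN1 was therefore not shown as a difference between the mutants.

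Downstream of the receptors, the NF-kappaB genes Nfkb2 and Relb rose in both Rbpj mutants. Of 14 NF-kappaB and kinase genes, 3 rose in KR: Nfkb2, the p100 precursor of p52 (1.01 ± 0.17, adjusted p = 0.0135), its partner Relb (0.88 ± 0.18, adjusted p = 0.0265) and Map3k14, which encodes NIK (1.21 ± 0.30, adjusted p = 0.0491). In LR 3 rose: Nfkb2 (0.80 ± 0.16, adjusted p = 0.0163), Relb (0.84 ± 0.16, adjusted p = 0.014) and Nfkbie, an NF-kappaB inhibitor that is itself induced by it (1.35 ± 0.23, adjusted p = 0.00516). In KN1 0 passed by edgeR, 5 were under an unadjusted p of 0.05 and DESeq2 called 2 (796 over all genes). In KR 7 and in LR 8 of the 14 were under that p, beside 22.9%, 15.5% and 18.5% of all genes in KR, LR and KN1. At the adjusted threshold edgeR called 0.696%, 0.872% and 0.86% of all genes higher. Nfkb2 and Relb in KN1 had 0.39 ± 0.17 and 0.37 ± 0.17 (adjusted p = 0.229 and 0.262). Of the canonical subunits, Rela had 0.36 ± 0.18, 0.34 ± 0.16 and 0.16 ± 0.17, and Rel -0.26 ± 0.17, 0.06 ± 0.16 and 0.07 ± 0.18. Chuk, the kinase that acts with NIK on p100, had -0.04 in KR and -0.11 in LR, and Map3k14 in LR had 0.79 ± 0.27 (adjusted p = 0.159). The medians of the 14 genes were 0.49, 0.32 and 0.19. The KR count was 0 without KR control 4, KR control 6 or KR mouse 3 and 1 without KR mouse 1 or 5, and the LR count was 1 without LR control 5 or LR mouse 3 and 2 without LR control 2, LR control 3 or LR mouse 1. Pooled controls lowered the KR values: against all 7 controls Nfkb2 had 0.50 and Relb 0.36. Map3k14 in KR was called in 8 of 25 alternative fits and Nfkbie in LR in all 26.

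Of 32 adaptors and death-signalling genes, 0 passed in KR by edgeR, with 15 at an unadjusted p under 0.05 and 3 called by DESeq2. In LR 10 and in KN1 5 were under an unadjusted p of 0.05. The shares over all genes were 22.9%, 15.5% and 18.5% in KR, LR and KN1, and DESeq2 called 1076 genes in KR. At the adjusted threshold edgeR called 0.696%, 0.872% and 0.86% of all genes higher in KR, LR and KN1. In LR 3 rose: Casp8, the initiator caspase of the death receptors (0.80 ± 0.14, adjusted p = 0.00713), Tnip1, which restrains NF-kappaB (0.63 ± 0.13, adjusted p = 0.0163), and Traf3, the adaptor that holds NIK low (0.68 ± 0.15, adjusted p = 0.0353). Traf3 was also the gene that rose in KN1 (0.70 ± 0.17, adjusted p = 0.0395), and it had 0.42 ± 0.16 in KR (adjusted p = 0.145). The medians were 0.03, 0.05 and -0.09. The LR count was 0 with each cohort fitted alone, 1 without LR control 2, LR control 3 or LR mouse 3 and 2 without LR mouse 1 or KN1 mouse 4. The call of Traf3 in KN1 was lost with each cohort alone, without the filter and without the second-named controls. It was also lost without KN1 control 7, KN1 mouse 2, 3 or 4, LR control 3, LR mouse 1, KR control 4 or KR control 6. In KR the smallest p of this list belonged to Traf6, an adaptor of RANK and CD40, with -0.70 ± 0.18 (adjusted p = 0.056).

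Of 21 tested genes known to be induced by TNF, 2 rose in KR, 3 in LR and 0 in KN1 by edgeR (4 at an unadjusted p under 0.05, 1 by DESeq2). In KR 14 and in LR 10 were under that p, beside 22.9%, 15.5% and 18.5% of all genes in KR, LR and KN1. At the adjusted threshold edgeR called 0.696%, 0.872% and 0.86% of all genes higher. Icam1, an adhesion molecule for leukocytes, rose in both Rbpj mutants: 60.9 ± 9.21 against 27.9 ± 0.449 CPM in KR (1.13 ± 0.22, adjusted p = 0.0265) and 119 ± 4.62 against 47.7 ± 7.18 CPM in LR (1.31 ± 0.20, adjusted p = 0.00216). In KN1 it had 0.47 ± 0.22 (adjusted p = 0.258). The neutrophil chemokine Cxcl1 rose in KR, with 29 counts against 0 (adjusted p = 0.0329). On a floor of 3 counts for its controls, the ratio was 8. KR mice averaged 0.733 CPM of Cxcl1, below the controls of LR (1.17 CPM) and of KN1 (0.903 CPM). In LR the monocyte chemokine Ccl2 rose from 6.12 ± 1.79 to 83 ± 30.4 CPM (3.77 ± 0.51, adjusted p = 0.00149) and the survival gene Bcl2a1d, which has near-identical copies, from 0.362 ± 0.2 to 6.36 ± 4.74 CPM (4.12 ± 0.67, adjusted p = 0.00391). The medians of the list were 1.07 in KR, also with Cxcl1 at its bound, 0.88 in LR and 0.19 in KN1. The KR count was 0 without KR control 6 or KR mouse 3 or 5 and 1 without KR control 4, while the LR count was 3 without each LR mouse or LR control in turn. These genes answer to other signals besides TNF, and what raised them was not tested. None of the 5 genes for shedding of the ligands and receptors passed by edgeR in any comparison (2, 1 and 1 at an unadjusted p under 0.05), among them the TNF sheddase Adam17 with -0.52 ± 0.17 in KR (adjusted p = 0.0958) and -0.45 ± 0.16 in LR (adjusted p = 0.186).

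**Figure D5:**
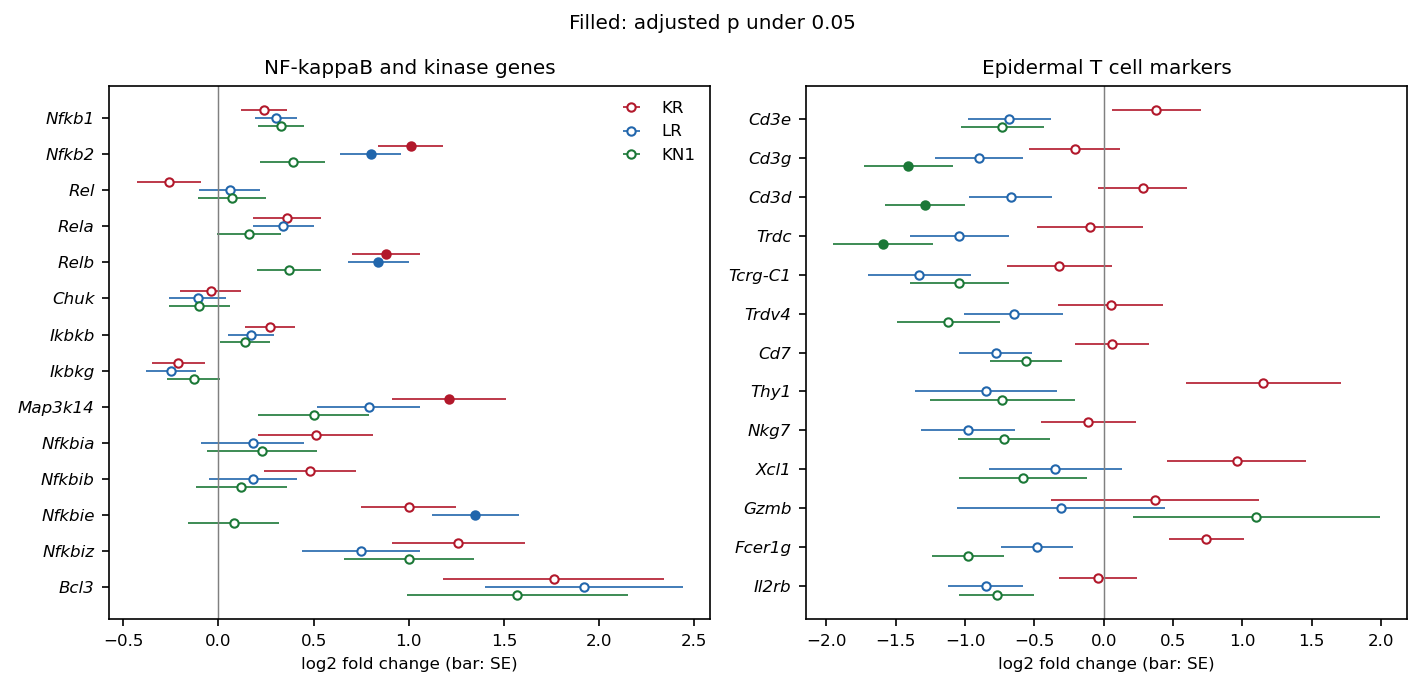
Log2 fold change, with the SE as a bar, of the 14 NF-kappaB and kinase genes (left) and the 13 epidermal T cell markers (right) in KR, LR and KN1; filled points passed an adjusted p of 0.05. Nfkb2 and Relb passed in KR and LR, Map3k14 in KR and Nfkbie in LR. All 13 T cell markers were on the lower side in LR, with 0 passing. In KN1 12 of 13 were on the lower side, and Cd3g, Cd3d and Trdc passed.

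Other cell types and the hair cycle moved between mice as well. The summed level of 12 genes of growing hair ran from 25.1 to 930 CPM in KR against 31.9 and 559 CPM, from 30.9 to 1020 CPM in LR against 15 to 586 CPM, and from 51.6 to 919 CPM in KN1 against 22.7 and 26.1 CPM. LR mouse 2 (1020 CPM), KR mouse 5 (930 CPM) and KN1 mouse 2 (919 CPM) were highest, followed by LR control 2 (586 CPM), KR control 6 (559 CPM) and KR mouse 4 (523 CPM). All 12 genes were on the higher side in each mutant, with a median of 4.71 in KN1, 0.71 in LR and 0.55 in KR, and with 0 of 12 called by edgeR and 0 at an unadjusted p under 0.05 in each. The 8 suprabasal keratinocyte markers were all on the lower side in KR (median -0.92, Dsg1a called at -1.40, adjusted p = 0.0385) and in LR (median -0.59, 0 called). In KN1 6 of the 8 were on the lower side (median -0.32, 0 called), with Dsg1a at -1.10 (adjusted p = 0.0774). Unadjusted p-values under 0.05 were reached by 4, 2 and 3 of these markers in KR, LR and KN1, beside 22.9%, 15.5% and 18.5% of all genes. At the adjusted threshold 0.696%, 0.872% and 0.86% of all genes were called higher and 0.902%, 0.248% and 1.11% lower. Of the 7 basal markers Krt14 rose in KR (0.82 ± 0.16, adjusted p = 0.0211), and Itgb4 rose in KN1 (0.65 ± 0.16, adjusted p = 0.0456). Of the 10 sebocyte markers 9 were on the higher side in KR (median 0.63) and 9 on the lower side in LR (median -0.65), with 0 called by edgeR and 2 at an unadjusted p under 0.05 in each. In KN1 8 of the 10 were on the lower side (median -0.22), with 0 called and 0 at an unadjusted p under 0.05. Of the mast cell list only Kit had a row (5.94 to 9.96 against 4.68 and 6.04 CPM in KR), and macrophage and neutrophil markers summed to 9.28 to 22 CPM in all mice. The part of these cells in the members' values was not tested.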

How the data were processed

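Poly(A) RNA of 18 mice was sequenced by a commercial provider, per the labels' protocols. The authors deposited raw counts of reads per gene, 21011 rows by 18 columns, without normalization. STAR, HTSeq, DESeq2 and the mouse build mm10 are named without versions, per the submitters' processing notes; strand use and filters are not given in the sources used here, and every row totals at least 18 counts.

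From the deposited counts, edgeR 4.0.16 (R 4.3.3) was fitted to 6 group means over all 18 mice with TMM factors, filterByExpr (16517 genes kept) and robust dispersion (common biological coefficient of variation 0.225). Two-sided quasi-likelihood F tests were adjusted by Benjamini-Hochberg over all genes kept, with a threshold of 0.05. CPM used TMM-scaled libraries; CPM per kb used union exon lengths of GENCODE M21. Standard errors, and the intervals built on them, were the size of the log2 fold change over the square root of the F statistic. They are approximate at low counts. DESeq2 1.42.0 and the other alternatives are described in the closing section. The fit was also run on counts simulated from a common mean per gene, without differences between batches, so that run does not cover such differences. Promoter windows came from RefSeq. Each library is a separate mouse, and within each group no library was a repeat of another. Pairs from different groups were not examined for this.

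The members, lists and tests were chosen with earlier results of these data known. Named members were those past the threshold, the 5 with the smallest p per direction in each comparison and the 10 with the highest level per length in controls; of each other list, those past the threshold and up to 4 with the smallest p. All other members are given by a level or a fold change.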

Additional observations from a re-analysis of the deposited data

Results flagged for a closer look

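A mouse far from the others of its group of 4 was found in 5 of 62 groups examined, where chance alone gives about 1 in 20. Tnfrsf4 was high in KN1 mouse 3, at 23.3 CPM against 17.9 to 18.8 CPM in the other KN1 mice. Ltb was high in KN1 mouse 1, at 8.04 CPM against 3.6 to 4.05 CPM. Eda was low in KR mouse 1, at 7.24 CPM against 9.72 to 9.96 CPM. Tnfsf10 was low in KR mouse 4, at 2.05 CPM against 3.26 to 3.44 CPM. Tnfsf15 was low in KN1 mouse 2, at 0.232 CPM against 0.554 to 0.619 CPM. None of these members was called in the comparison of that mouse's group.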

How the results depend on the processing

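With 2 or 3 controls per mutant, the number of calls moved with single mice. In KR the 3 member calls became 5 when each cohort was fitted alone (the added members were Tnf and Tnfrsf12a), 0 without the second-named controls, and 0 to 4 when each mouse was left out. In LR the 3 became 1 (Tnfsf11) with each cohort alone or without the second-named controls, and 1 to 3 when each mouse was left out. Against all 7 controls pooled LR kept 3 calls, but with Tnfrsf10b in place of Tnfrsf18, and 1052 genes were called over the whole table. In KN1 the 0 became 3 (Tnfrsf11a, Tnfrsf12a and Tnfrsf18) against all 7 controls pooled, of which 2 were higher. That fit called 1867 genes over the whole table, 856 of them higher. The number of members whose effect differed between mutants, 0, became 1 without the filter and 0 to 1 with each mouse left out.

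Over all genes, the calls were 264 in KR, 185 in LR and 325 in KN1. Each cohort alone gave 672, 66 and 98. Pooled controls gave 809, 1052 and 1867, and DESeq2 gave 1076, 536 and 796. Without the second-named controls KR had 32 and KN1 41. Leaving out each mouse gave 5 to 1353, 60 to 246 and 2 to 640. The shared numbers 2 and 3 of LR and its controls are only numbers (correlations of 0.07 and -0.08), and a replicate block on them gave 3 members and 163 genes. KR and KN1 share only 1 number each with their controls, and no block could be fitted there. No called member changed sign in any alternative. Of the members not called, 11 of 683 values in KR, 24 of 707 in LR and 48 of 752 in KN1 changed sign. The alternatives for the NF-kappaB, adaptor and TNF-induced lists were added after the data were seen. Low counts limit the ligands: Tnfsf11 in LR rests on 101 counts in mutants and 4 in controls.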
